A study of Mus musculus with 6 samples.

Results

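The CXC chemokines are small secreted proteins named after a pair of conserved cysteines that are separated by a single residue, and the genes of this family were followed in cultured mouse keratinocytes. The members were chosen by gene symbol, and they are 10 of the 24982 genes listed in each library. The ELR class, whose products attract neutrophils, was represented by 5 genes (*Cxcl1*, *Cxcl2*, *Cxcl3*, *Cxcl5* and *Ppbp*), and the non-ELR class by the other 5 (*Cxcl9*, *Cxcl10*, *Cxcl12*, *Cxcl14* and *Cxcl16*). RNA-seq was carried out on 6 libraries of keratinocytes from the neonatal skin of C57BL/6 mice, 3 of the KSFM-Ca2+ cells and 3 of the DKSFM cells, none of them treated. The KSFM-Ca2+ cells were obtained and maintained in low-calcium, serum-free medium. The paper describes the DKSFM cells as KSFM-Ca2+ cells that survived a transfer to the defined medium DKSFM, which holds more calcium. It reports several lines derived in KSFM-Ca2+ and does not state which were sequenced. Whether both kinds of cells came from the same one is not stated either, and each kind is called a line below. Medium, calcium, adaptation and the selection of surviving cells differed together between the lines. The origin of the cells may have differed too, and these cannot be told apart. What a replicate was is not stated in the sources used here, so p-values measure only the spread between these libraries, which may be technical, and the word combined, which stands in the file names of KSFM-Ca2+ 3 and all 3 DKSFM libraries, is not explained.

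The values are mean read coverage per base of each gene, which allows levels to be compared between genes of different length. Summed over all genes, the deposited coverage was 1601676, 1238411 and 1057750 in KSFM-Ca2+ 1, 2 and 3, and 1174348, 1239438 and 1170675 in DKSFM 1, 2 and 3. Coverage was scaled between libraries, and this normalized coverage is given below unless a value is said to be listed, that is, as deposited. Between 13748 and 14140 genes were above 0 in a library, and values were written in steps of 0.1, which sets the smallest level that could be seen. The paper states a mean number of reads per sample but not the number of each library. The depth of a library in reads is unknown from these values, so no counting interval is given.

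Chemokines guide leukocytes along concentration gradients by binding receptors that couple to G proteins. CXC ligands that carry glutamate, leucine and arginine (ELR) directly before their cysteines act mainly through the receptor Cxcr2 and attract neutrophils, whereas the ligands without these residues act on other receptors and attract mostly lymphocytes and other mononuclear cells. In skin, keratinocytes release ELR chemokines on injury, infection or stimulation by inflammatory cytokines, while *Cxcl14* is a chemokine of resting epithelium.

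The division between the classes can be read in the coding sequence of each gene, which is shown because the members are described by class below. Below are 30 coding bases of each member from the transcripts of GENCODE M21 (GRCm38, mm10), in the direction of the gene. Capitals mark the 3 codons directly before the CXC cysteines.
Cxcl1: GAGCTGCGCtgtcagtgcctgcagaccatg
Cxcl2: GAACTGCGCtgtcaatgcctgaagaccctg
Cxcl3: GAGCTGCGCtgtcagtgcctgaacacccta
Cxcl5: GAGCTGCGTtgtgtttgcttaaccgtaact
Ppbp: GAACTGCGCtgcagatgtacgaataccatc
Cxcl9: AATGCACGAtgctcctgcatcagcaccagc
Cxcl10: ACGGTCCGCtgcaactgcatccatatcgat
Cxcl12: AGCTACCGAtgcccctgccggttcttcgag
Cxcl14: GGGTCCAAGtgtaagtgttcccggaagggg
Cxcl16: GCTGGAAGTtgttcttgtgatcgtaccatt
By the definition of the classes, the marked codons encode glutamate, leucine and arginine in 5 of 5 ELR members and in 0 of 5 non-ELR members. The ELR stretches lie in coding exons on the plus strand of chromosome 5, that of *Cxcl5* at chr5:90759718-90759747, that of *Ppbp* at chr5:90769076-90769105, that of *Cxcl3* at chr5:90786359-90786388, that of *Cxcl1* at chr5:90891487-90891516 and that of *Cxcl2* at chr5:90904133-90904162. Those of *Cxcl9* (chr5:92326830-92326859) and *Cxcl10* (chr5:92348169-92348198) are on the minus strand of the same chromosome. The stretch of *Cxcl12* is at chr6:117171499-117171528 on the plus strand and that of *Cxcl16* at chr11:70459115-70459144 on the minus strand. In *Cxcl14* the coding bases are split by an intron and span 208 bases of the minus strand (chr13:56295903-56296110).

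All 5 ELR members were lower in the DKSFM cells, while the non-ELR members were divided. A gene was called when its adjusted p in limma (Benjamini-Hochberg over the 12409 genes tested) was under 0.01 and its fold change was at least 2. By this rule 5 of 5 ELR members were called lower, where 10.5% of all tested genes were, and the median log2 fold change (DKSFM over KSFM-Ca2+) of the class was -5.95, where that of all tested genes was 0. The class median is the value of *Cxcl2*, the member that depends most on the pseudocount, and it was -4.87 with a pseudocount of 1. Of the 5 non-ELR members, *Cxcl16* was called lower and *Cxcl14* was called higher, where 13.2% of all tested genes were called higher and 23.7% were called in either direction. The other 3, *Cxcl9*, *Cxcl10* and *Cxcl12*, did not reach a normalized coverage of 0.5 in at least 3 libraries and were not tested. The 7 tested members were at or above 0.5 in every library of both lines, so none of them entered the test through 1 line alone. In each of the 7 the libraries of the lines did not overlap, which was also the case for 83.3% of all tested genes. In libraries of whole cultures, fewer cells of a type and less RNA per cell cannot be told apart.

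**Figure D1:**
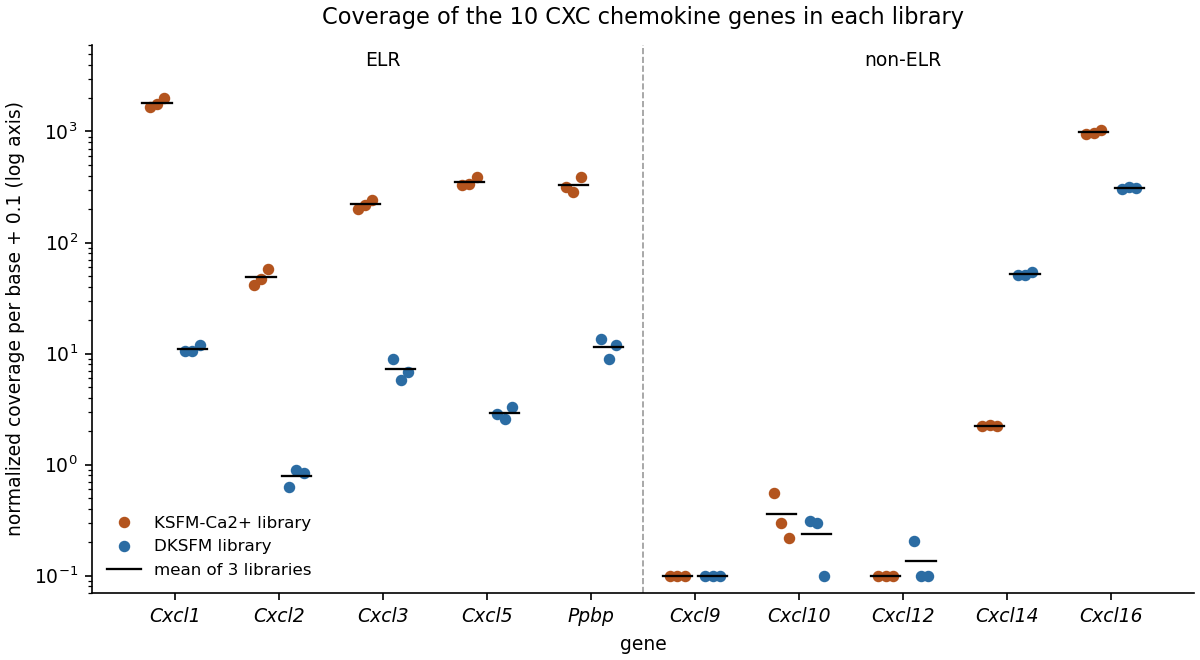
Normalized coverage per base plus 0.1 of each of the 10 genes, on a log axis, with a point for every library and a line at the mean of the 3 libraries of a line. The DKSFM points of the 5 ELR genes and of *Cxcl16* lie below the KSFM-Ca2+ points, those of *Cxcl14* lie above them, and *Cxcl9*, *Cxcl10* and *Cxcl12* stay near the floor of the axis in both lines.

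*Cxcl1*, whose product is a strong attractant of neutrophils, had the highest level of the members in the KSFM-Ca2+ cells. Its normalized coverage was 1661, 1782 and 1994 in the KSFM-Ca2+ libraries and 10.5, 10.4 and 11.9 in the DKSFM libraries. Every KSFM-Ca2+ library was high and every DKSFM library low, with no overlap and a narrow spread within each line. The mean was 1812 ± 168 in the KSFM-Ca2+ cells and 10.9 ± 0.823 in the DKSFM cells (SD, n = 3 libraries in each line here and below), a ratio of 166, and the log2 fold change was -7.36 (standard error 0.074, 95% confidence interval -7.53 to -7.19, adjusted p = 1.92e-10, limma). It was more abundant than 99.4% of tested genes in the KSFM-Ca2+ cells and than 32.2% in the DKSFM cells.

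*Cxcl5* encodes a chemokine that is made largely by epithelial cells and also acts through Cxcr2. Normalized coverage reached 331.6, 337.1 and 392.4 in the KSFM-Ca2+ libraries and 2.76, 2.50 and 3.18 in the DKSFM libraries. The lowest KSFM-Ca2+ library was far above the highest DKSFM library. Means were 353.7 ± 33.6 and 2.81 ± 0.344, a ratio of 126, with a log2 fold change of -6.93 (standard error 0.096, 95% confidence interval -7.15 to -6.70, adjusted p = 7.24e-10, limma).

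*Cxcl2*, a neutrophil attractant closely related to *Cxcl1*, was the least abundant of the ELR genes in both lines. The KSFM-Ca2+ libraries had 41.4, 47.2 and 57.5, and the DKSFM libraries had 0.531, 0.799 and 0.742. The latter values are only a few rounding steps above 0, since the gene was listed at 0.5, 0.8 and 0.7 in these libraries, but they did not overlap with those of the KSFM-Ca2+ cells. Means were 48.7 ± 8.14 and 0.691 ± 0.142, a ratio of 70.5, and the log2 fold change was -5.95 (standard error 0.16, 95% confidence interval -6.33 to -5.57, adjusted p = 1.78e-08, limma). Because a pseudocount of 0.1 was added before the log transformation, and it weighs most on low values, the fold change of *Cxcl2* moved more than that of the other members when the pseudocount was raised, to -4.87 at its smallest.

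*Cxcl3* also encodes a neutrophil attractant and is closely related to *Cxcl1* and *Cxcl2*. Values of 202.1, 217.6 and 243.1 in the KSFM-Ca2+ libraries stood against 8.81, 5.70 and 6.79 in the DKSFM libraries. The 3 DKSFM libraries were all low, with a wider relative spread than the 3 high KSFM-Ca2+ libraries. The ratio of the means, 220.9 ± 20.7 over 7.10 ± 1.58, was 31.1, and the log2 fold change was -4.96 (standard error 0.14, 95% confidence interval -5.29 to -4.62, adjusted p = 2.31e-08, limma).

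*Ppbp* encodes pro-platelet basic protein, the precursor of a neutrophil-activating peptide that is best known from platelets. The KSFM-Ca2+ libraries had 319.3, 283.8 and 388.7, and the DKSFM libraries had 13.5, 8.89 and 11.8. Libraries of the same line varied more for this gene than for *Cxcl1*, yet all KSFM-Ca2+ libraries were above all DKSFM libraries. Its means of 330.6 ± 53.3 and 11.4 ± 2.32 gave a ratio of 29.1, and the log2 fold change was -4.86 (standard error 0.16, 95% confidence interval -5.23 to -4.49, adjusted p = 4.46e-08, limma).

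**Figure D2:**
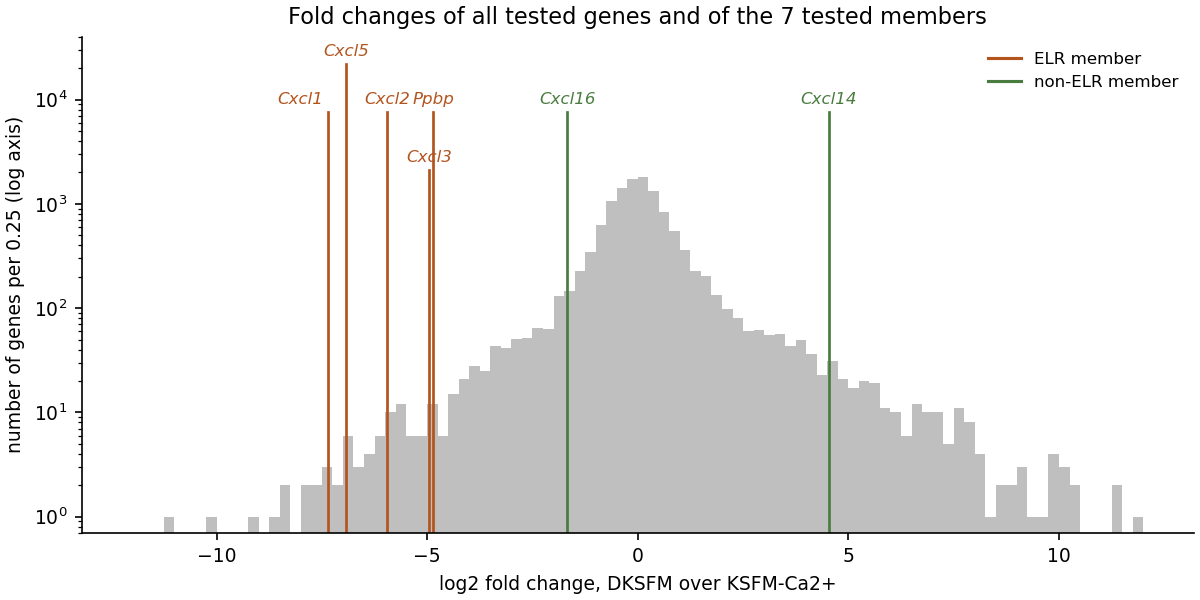
Histogram of the log2 fold change (DKSFM over KSFM-Ca2+) of the 12409 tested genes, with the number of genes on a log axis and the 7 tested members marked by lines. The ELR members lie between -7.36 and -4.86 in the lower tail, *Cxcl16* lies at -1.67 and *Cxcl14* at 4.53.

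*Cxcl16* was the most abundant non-ELR member in both lines. Its product is made as a transmembrane protein that can be shed as a soluble chemokine and that binds Cxcr6. The normalized coverage was 952.7, 978.6 and 1035 in the KSFM-Ca2+ libraries and 306.1, 318.5 and 309.9 in the DKSFM libraries. Libraries were tightly grouped within each line and the lines were apart. The means, 988.6 ± 41.9 and 311.5 ± 6.35, differed by a ratio of 3.17, and the log2 fold change was -1.67 (standard error 0.036, 95% confidence interval -1.75 to -1.58, adjusted p = 5.21e-09, limma). *Cxcl16* was thus lowered, but less than any ELR member, whose confidence intervals all lay farther from 0 (the nearest bound was -4.49, of *Ppbp*). It was still more abundant than 94.5% of tested genes in the DKSFM cells, after 98.5% in the KSFM-Ca2+ cells.

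*Cxcl14* was the only member that was called higher in the DKSFM cells. It encodes a chemokine that many epithelia produce without stimulation. The KSFM-Ca2+ libraries had 2.13, 2.18 and 2.12, and the DKSFM libraries had 50.8, 50.5 and 53.6. The libraries of a line were close to each other and the lines did not overlap. Means were 2.14 ± 0.0274 and 51.6 ± 1.76, a ratio of 24.1 in favour of the DKSFM cells, with a log2 fold change of 4.53 (standard error 0.057, 95% confidence interval 4.39 to 4.66, adjusted p = 5.2e-10, limma). *Cxcl14* went from being more abundant than 14.3% of tested genes to being more abundant than 66.9%.

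The interferon-inducible chemokine genes *Cxcl9* and *Cxcl10*, whose products bind Cxcr3, and *Cxcl12*, a product of stromal cells that binds Cxcr4, were at or near 0. *Cxcl9* was listed at 0 in all 6 libraries. *Cxcl10* was listed at 0.6, 0.2 and 0.1 in the KSFM-Ca2+ libraries, against 0.2, 0.2 and 0 in the DKSFM libraries, with overlap between the lines. *Cxcl12* was listed at 0.1 in DKSFM 1 and at 0 in the other 5 libraries. For these genes a difference between the lines was not detectable at this depth.

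The order of the members by level was not the same in the lines. In the KSFM-Ca2+ cells *Cxcl1* came first, before *Cxcl16*, *Cxcl5*, *Ppbp*, *Cxcl3*, *Cxcl2* and *Cxcl14*. The ranges of *Cxcl5* and *Ppbp* overlapped between libraries, although *Cxcl5* was the higher of the pair within each of the 3 libraries. In the DKSFM cells *Cxcl16* came first, before *Cxcl14*, *Ppbp*, *Cxcl1*, *Cxcl3*, *Cxcl5* and *Cxcl2*. There *Ppbp* and *Cxcl1* overlapped, and *Ppbp* was the higher in DKSFM 1 only, so these neighbours did not differ beyond their spread.

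Summed over the 10 members, normalized coverage was 3757 ± 315 in the KSFM-Ca2+ cells and 396.2 ± 2.58 in the DKSFM cells, or 0.305 ± 0.0219% and 0.0319 ± 0.000346% of the coverage of all genes. Most of the fall lay in the ELR genes, whose sum was 2766 ± 274 in the KSFM-Ca2+ cells and 32.9 ± 4.1 in the DKSFM cells, a ratio of 84.1. The non-ELR genes summed to 991.1 ± 41.8 and 363.2 ± 6, a ratio of 2.73. As a result, ELR genes made up 72.8%, 73.1% and 74.8% of member coverage in the KSFM-Ca2+ libraries and 9.18%, 7.12% and 8.63% in the DKSFM libraries. The share of *Cxcl1* alone was 48.2 ± 0.8% in the KSFM-Ca2+ cells and 2.76 ± 0.198% in the DKSFM cells. *Cxcl16* held 26.4 ± 1.06% and 78.6 ± 1.32%, and *Cxcl14* held 0.0574 ± 0.00497% and 13.03 ± 0.405%. These shares are taken within a library and do not depend on scaling between libraries.

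**Figure D3:**
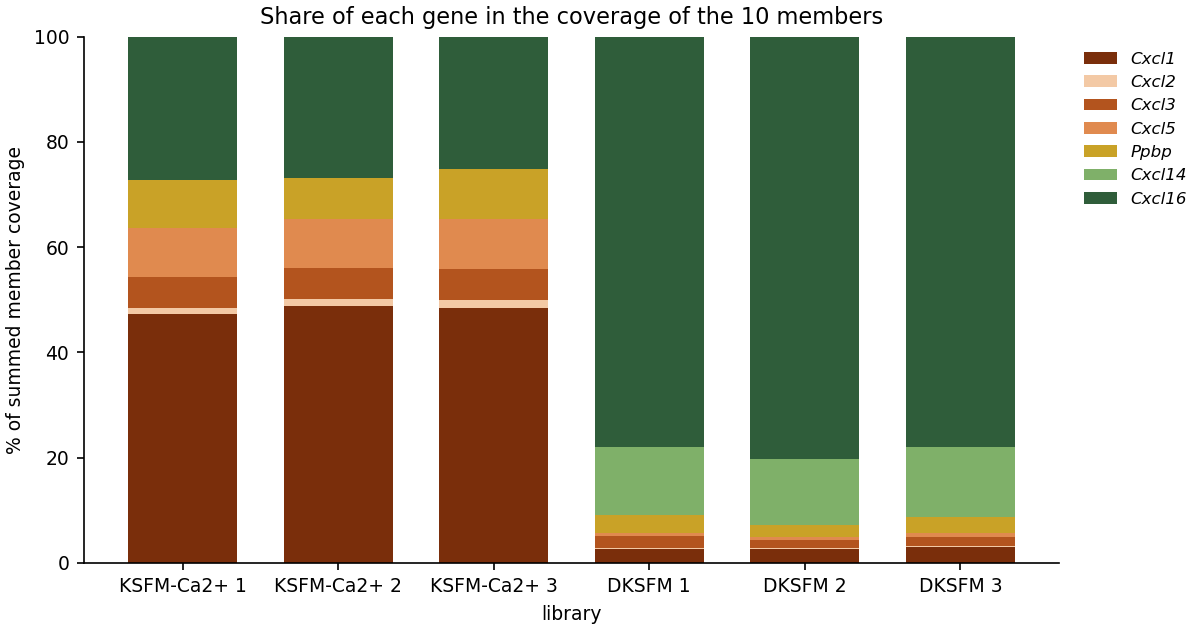
Stacked bars of the share of each gene in the summed coverage per base of the 10 members, in percent, for each of the 6 libraries. *Cxcl9*, *Cxcl10* and *Cxcl12* are too low to be drawn. ELR genes, in brown, orange and yellow, take 72.8% to 74.8% of the KSFM-Ca2+ bars and 7.12% to 9.18% of the DKSFM bars, where *Cxcl16* and *Cxcl14*, in green, take the rest.

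Whether members of a class changed unequally was examined with ratios between genes within a library, for 8 pairs set up within the classes. With 3 libraries against 3, the two-sided exact permutation test cannot give a p below 0.1, so none of the ratios could pass a threshold of 0.05. Among the ELR genes, the log2 ratio of *Ppbp* over *Cxcl1* was -2.46 ± 0.16 in the KSFM-Ca2+ cells and 0.04 ± 0.29 in the DKSFM cells, a difference of 2.5 (exact p = 0.1, Benjamini-Hochberg 0.114 over the 8 pairs). *Cxcl3* over *Cxcl1* went from -3.04 ± 0.0027 to -0.64 ± 0.33, a difference of 2.4, and *Cxcl2* over *Cxcl1* from -5.22 ± 0.11 to -3.82 ± 0.26, a difference of 1.41. *Cxcl5* stayed closest to *Cxcl1*, with ratios of -2.36 ± 0.04 and -1.92 ± 0.078 and a difference of 0.43. In all 4 of these pairs the ratio was higher in every DKSFM library than in every KSFM-Ca2+ library, and the exact permutation p was 0.1, the smallest possible. With a pseudocount of 1, chosen after the data were seen, the differences of *Cxcl2* and *Cxcl5* over *Cxcl1* were larger, at 2.38 and 0.71, while those of *Cxcl3* and *Ppbp* over *Cxcl1* were 2.46 and 2.5. Of the non-ELR genes, *Cxcl14* over *Cxcl16* went from -8.78 ± 0.069 to -2.59 ± 0.064, a difference of 6.19 (exact permutation p = 0.1). *Cxcl10* over *Cxcl16* overlapped between the lines (exact permutation p = 0.2), and ratios of *Cxcl9* and *Cxcl12*, listed at 0 in most libraries, are not read.

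The ELR genes are neighbours on chromosome 5. All 5 are on the plus strand within 146.6 kb (GENCODE M21, GRCm38), in the order *Cxcl5* (chr5:90759360-90761624), *Ppbp* (chr5:90768518-90770063), *Cxcl3* (chr5:90786103-90789600), *Cxcl1* (chr5:90891241-90893115) and *Cxcl2* (chr5:90903871-90905938). *Cxcl9* (chr5:92321347-92328079) and *Cxcl10* (chr5:92346638-92348889) lie farther along the same chromosome, while *Cxcl12* (chr6:117168535-117181367), *Cxcl14* (chr13:56288643-56296551) and *Cxcl16* (chr11:70453983-70459984) are on other chromosomes. Between the ELR members lie *Pf4*, listed at 0.1, 0 and 0.1 in the KSFM-Ca2+ libraries, against 0 in the DKSFM libraries, and *Cxcl15*, listed at 0 in all 6, so these interspersed CXC genes were not tested. *Cxcl15* also encodes an ELR chemokine but is not among the members, so what is said of the ELR members does not extend to every ELR gene of the cluster. The change in the ELR genes was not shared by the chromosome, whose other 803 tested genes had a median log2 fold change of 0.08. Of these, 69 were called lower and 105 higher, beside 10.5% and 13.2% of all tested genes. For the chromosomes of *Cxcl14*, *Cxcl16* and *Cxcl12* these medians were -0.17 over 458 genes, -0.07 over 1042 genes and 0.31 over 579 genes. In the same order, 62, 100 and 39 genes were called lower, and 49, 114 and 126 were called higher.

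Within 500 kb of the outermost ELR genes, 15 other genes were listed and 8 were tested, of which 3 were called lower and 1 higher, beside 10.5% and 13.2% of all tested genes (median log2 fold change -0.54). The 3 lowered genes all encode ligands of the epidermal growth factor receptor. *Ereg* (epiregulin) was listed at 17.0, 14.6 and 12.6 in the KSFM-Ca2+ libraries, against 0.9, 1.3 and 1.1 in the DKSFM libraries (limma, log2 fold change -3.52, adjusted p = 6.41e-08). *Areg* (amphiregulin) was listed at 18.1, 16.9 and 14.9 and at 1.8, 1.8 and 1.4 (log2 fold change -3.14, adjusted p = 1.35e-07, limma). *Btc* (betacellulin) was listed at 2.0, 1.7 and 1.3 and at 0.1, 0.1 and 0 (log2 fold change -3.39, adjusted p = 2.11e-05, limma). Each of them was lower in every DKSFM library. The fold change of *Btc* is limited by the pseudocount, since its DKSFM values are at the rounding step or 0, so its size is not compared with that of other genes. *Btc* also reached the filter through the KSFM-Ca2+ libraries alone, so its call is not read as a test. The count of lower calls and the median around the ELR genes include it and are not read against all tested genes. *Epgn*, which encodes a further ligand of the same receptor and lies between *Cxcl2* and *Ereg*, went the other way without reaching 2-fold (log2 fold change 0.98, adjusted p = 8.36e-05, limma). *Mthfd2l*, the nearest tested gene outside the family to *Cxcl2*, did not pass the threshold (log2 fold change -0.18, adjusted p = 0.204, limma), and neither did *Ankrd17* (0.05, adjusted p = 0.159, limma). *Rassf6* was lower by less than 2-fold (-0.89, adjusted p = 0.0014, limma), and *Gm9958* was called higher (1.1, adjusted p = 5.52e-05, limma). *Alb*, *Afp*, *Afm*, *5830473C10Rik* and *Gm19619* were at or near 0, as were *Pf4* and *Cxcl15*.

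**Figure D4:**
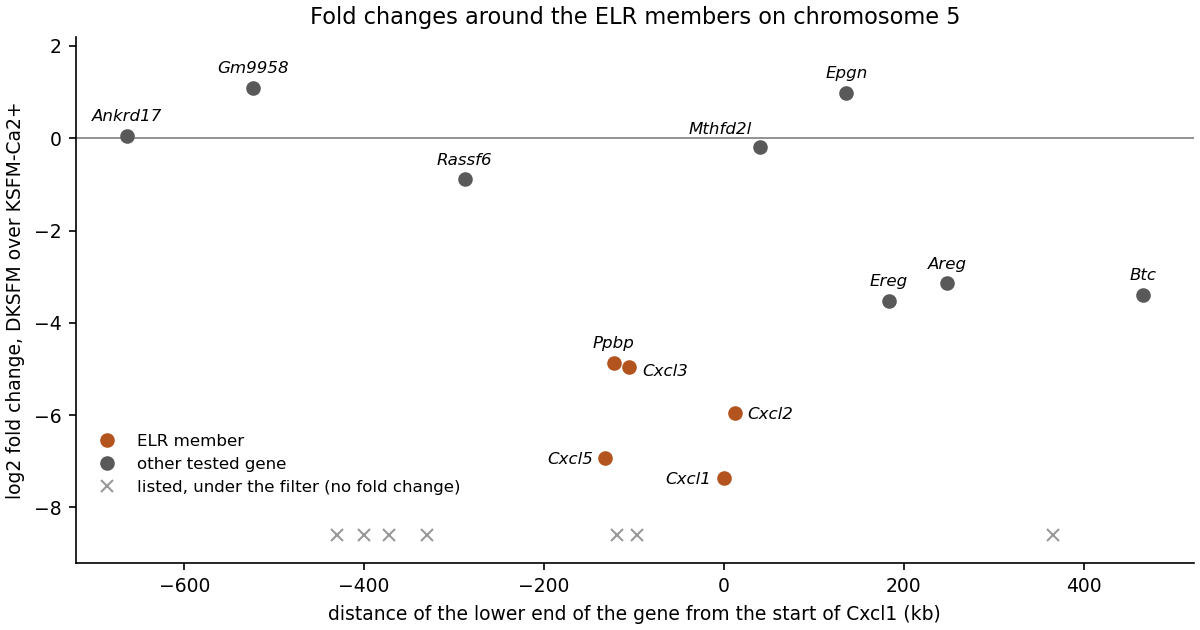
Log2 fold change (DKSFM over KSFM-Ca2+) of the tested genes around the ELR members against the distance of each gene from the start of *Cxcl1*, in kb. Crosses at the bottom stand for listed genes under the filter, which have no fold change. The 5 ELR genes lie between -7.36 and -4.86, *Ereg* and *Areg* lie at -3.52 and -3.14, and 5 other tested genes lie between -0.89 and 1.1. The point of *Btc* is limited by the pseudocount, and the gene reached the filter through the KSFM-Ca2+ libraries alone.

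Since related genes can share reads, the transcripts of the ELR members were compared in windows of 85 bases, the length of a read. Only *Cxcl2* and *Cxcl3* had windows in common, 26 identical ones, or 2.54% of the windows of *Cxcl2* and 2.79% of those of *Cxcl3*, with a longest shared run of 110 bases. *Cxcl1* shared runs of at most 23 bases with *Cxcl2* and *Cxcl3*, and no other pair of ELR members had an identical window. How reads of such windows entered the coverage is not stated in the sources used here. If all reads of *Cxcl3* from the identical windows had gone to *Cxcl2*, they would have added a coverage of 5.65 in the KSFM-Ca2+ cells and 0.181 in the DKSFM cells, 11.6% and 26.3% of the level of *Cxcl2*. These amounts count identical windows only. With up to 5 mismatches 98 windows were alike, 9.56% of those of *Cxcl2* and 10.5% of those of *Cxcl3*, so no upper limit is given for the reads that the pair could share.

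The stretches before the start of each gene were searched for short motifs of factors known from chemokine genes. Promoters, 250 bases before to 50 bases after the start, came from RefSeq (GRCm38.p6) for 8 of the 10 members, all but *Cxcl5* and *Cxcl16*. The kappaB motif, which NF-kappaB proteins can bind, was written as GGG, 3 free bases and TTCC and was searched on both strands. It was found in *Cxcl1*, *Cxcl2* and *Cxcl3*, and in *Cxcl10* among the non-ELR genes, but not in the windows of *Ppbp*, *Cxcl9*, *Cxcl12* or *Cxcl14*. It was present in 5.56% of 32851 promoters, in 7.55% of the 9618 tested genes with a promoter and in 8.74% of the 938 of them called lower. In each gene with a match, 30 bases around a match are shown in the direction of the gene, with the match in capitals.
Cxcl1: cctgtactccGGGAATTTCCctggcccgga
Cxcl2: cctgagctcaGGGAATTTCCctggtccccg
Cxcl3: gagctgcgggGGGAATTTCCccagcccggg
Cxcl10: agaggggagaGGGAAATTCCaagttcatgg
The matches of *Cxcl1* (chr5:90891164-90891193, plus strand), *Cxcl2* (chr5:90903792-90903821, plus strand) and *Cxcl3* (chr5:90786018-90786047, plus strand) hold the same letters and begin 71, 97 and 73 bases before the start. In these 3 genes a match on the other strand begins 1 base farther on and overlaps with the match shown. That of *Cxcl10* (chr5:92349029-92349058, minus strand) begins 159 bases before the start. Each of the 4 genes held a further match, 89 bases before the start in *Cxcl1*, 78 in *Cxcl2*, 50 in *Cxcl3* and 104 in *Cxcl10*. *Cxcl10*, which holds the motif, was near 0 in both lines, and *Ppbp*, which was lowered, has no such letters in this window. The AP-1 motif TGANTCA was found in *Ppbp*, *Cxcl9* and *Cxcl10* (7.81% of all promoters, 6.51% of tested genes and 11.5% of those called lower), and the motif of the interferon-stimulated response element, TTTC, 2 free bases and TTTC, in *Cxcl10* and *Cxcl14* (3.44%, 3.51% and 5.01%). A match describes the letters of the window and not the binding of a factor, which was not measured.

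Genes outside the family with the most similar profile were found by the Euclidean distance between centred log2 profiles over the 6 libraries. Closest to *Cxcl1* were *Gusb* (a lysosomal glucuronidase, distance 0.42), *Ccl2* (a chemokine for monocytes, 0.456), *Tnf* (tumour necrosis factor, 0.462), *Prl8a9* (a prolactin family gene, 0.565) and *Nos2* (inducible nitric oxide synthase, 0.61). *Tnf* was listed at 15.3, 12.1 and 13 and *Nos2* at 16.9, 12.3 and 9.8 in the KSFM-Ca2+ libraries, and both were listed at 0 in all DKSFM libraries. *Gusb* was listed at 0.1, 0.1 and 0.2 there. The distances of these 3 genes are therefore set largely by the pseudocount of 0.1, and their place in the order is not read. Closest to *Cxcl16* were *Epha2* (an ephrin receptor, distance 0.0474), *Antxr2* (0.0794), *Slpi* (a secreted protease inhibitor, 0.0824), *Tmem176a* (0.0826) and *Ube2t* (0.0851). The distances around *Cxcl16* are smaller than those around *Cxcl1*, whose profile spans a wider range.

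Receptors of the CXC ligands were mostly not expressed. Of 8 receptor and decoy receptor genes, *Cxcr2* and *Ackr3* were tested. *Cxcr2*, the main receptor of ELR chemokines, was listed at 4.0, 3.5 and 2.1 in the KSFM-Ca2+ libraries, against 0.1, 0.2 and 0.2 in the DKSFM libraries. It was low in the KSFM-Ca2+ cells and near the rounding step in the DKSFM cells. The log2 fold change was -3.52 (standard error 0.23, adjusted p = 2.18e-06, limma), and its size is limited by the pseudocount. *Cxcr2* reached the filter through the KSFM-Ca2+ libraries alone, so its call is not read as a test. *Ackr3*, a scavenger of *Cxcl12*, was listed at 19.3, 17.4 and 12.1 and at 19.6, 19.0 and 19.0 and was not called (log2 fold change 0.38, adjusted p = 0.00229, limma). *Cxcr4* was listed at 0.1 in DKSFM 3 and at 0 in the other libraries, and *Cxcr1*, *Cxcr3*, *Cxcr5*, *Cxcr6* and *Ackr1* were listed at 0 in all 6. Receptors for *Cxcl9*, *Cxcl10*, *Cxcl12* and *Cxcl16* were thus at or near 0, apart from *Ackr3*. Further CXC ligand genes did not reach the filter either, with *Cxcl11* and *Cxcl13* at 0 in all libraries and *Cxcl17* listed at 0.1, 0 and 0 in the KSFM-Ca2+ and 0.1, 0.4 and 0.3 in the DKSFM libraries.

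Of 4 proteases known to cut CXC ligands, *Adam10* and *Adam17*, the former of which sheds *Cxcl16* from cells, were tested and neither was called. Their log2 fold changes were 0.65 and 0.66 (adjusted p = 1.39e-06 and 9.03e-07, limma), so both lay under the 2-fold limit with higher values in the DKSFM cells, whereas *Cxcl16* itself was lower. *Dpp4* was at 0 in all libraries and *Mmp9* was listed at 0.1, 0.2 and 0.1 in the KSFM-Ca2+ libraries, against 0 in the DKSFM libraries.

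Among 12 genes for cytokines, receptors and adaptors that act upstream of ELR chemokines, 11 were tested, 3 were called lower and 1 was called higher, where 10.5% and 13.2% of all tested genes were (median log2 fold change 0.16, against 0 for all tested genes). *Il1a*, an alarm cytokine of keratinocytes, was listed at 131.8, 106.4 and 102.1 in the KSFM-Ca2+ libraries, against 0.4, 0.6 and 0.2 in the DKSFM libraries (limma, log2 fold change -7.80, adjusted p = 4.59e-08). *Tnf*, whose values are given above, was called lower too (adjusted p = 9.95e-09, limma), with no fold given against a line at 0. The change in *Il1rap*, the accessory chain of the interleukin receptor for *Il1a*, was small at -1.07 (adjusted p = 1.86e-06, limma), and *Tnfrsf1a*, a receptor of TNF, was called higher at 1.04 (adjusted p = 6.68e-08, limma). *Il1b* was listed at 0.1, 0 and 0.1 in the KSFM-Ca2+ libraries, against 0 in the DKSFM libraries. The DKSFM values of *Il1a* are only a few rounding steps above 0, which limits how well its fold change is known. *Il1a* and *Tnf* reached the filter through the high KSFM-Ca2+ libraries, so their calls are not read as tests. The count of lower calls in this list is therefore not read against the share of all tested genes. The 9 tested genes of the list other than *Il1a* and *Tnf* lay between -1.07 and 1.04.

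Of 17 genes for NF-kappaB subunits, inhibitors and co-regulators, all were tested, 5 were called lower and 2 higher (median log2 fold change -0.24), beside 10.5% lower and 13.2% higher among all tested genes. *Ikbke*, an inducible kinase of the pathway, had a mean of 73.0 ± 3.75 in the KSFM-Ca2+ and 11 ± 0.877 in the DKSFM libraries. Its fold change was -2.72 on the log2 scale (adjusted p = 1.15e-08, limma). *Nfkbia*, which encodes the inhibitor IkappaB alpha and is itself an NF-kappaB target, had 235.3 ± 6.73 and 47.1 ± 0.344 (log2 fold change -2.32, adjusted p = 6.56e-10, limma). The inhibitor and co-regulator genes *Nfkbiz*, *Tnfaip3* and *Nfkbie* were called lower at -1.44, -1.28 and -1.06, while the co-regulator *Bcl3* (1.73, adjusted p = 8.05e-07, limma) and *Cebpd* (1.46) were called higher. The genes for the DNA-binding subunits, *Rela*, *Relb*, *Rel*, *Nfkb1* and *Nfkb2*, were not called, with log2 fold changes between -0.65 and 0.46. Of these, *Nfkb2* (-0.65, adjusted p = 2.02e-06, limma), *Nfkb1* (0.46, adjusted p = 2.3e-05) and *Relb* (-0.24, adjusted p = 0.00685) missed only the 2-fold limit. The activity of the pathway was not tested.

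Among 7 regulators of the decay or stability of ELR transcripts, *Zc3h12a*, which encodes an RNase that cuts cytokine transcripts, was called lower (log2 fold change -1.76, adjusted p = 1.19e-07, limma), and *Zfp36l1*, a decay factor that binds AU-rich elements, was called higher (2.61, adjusted p = 4.55e-09, limma). *Zfp36*, its relative, had 0.61 (adjusted p = 3.88e-05, limma), and the median of the 7 was -0.14. With 1 of 7 called lower and 1 called higher, the list was near the 10.5% and 13.2% of all tested genes. Of 12 interferon receptor and response genes, 10 were tested and *Irf1* was called lower (-1.50, adjusted p = 2.86e-07, limma), with a median of -0.16. This 1 of 10 is near the 10.5% of all tested genes, and none was called higher. *Irf3* (0.87) was not called, and neither was *Irf7*, whose means of 6.069 and 3.004 have a ratio of 2.02 but whose log2 fold change with the pseudocount fell just short of the limit. *Ifnb1* and *Ifng* were listed at 0 in all libraries, as was *Cxcl9*.

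**Figure D5:**
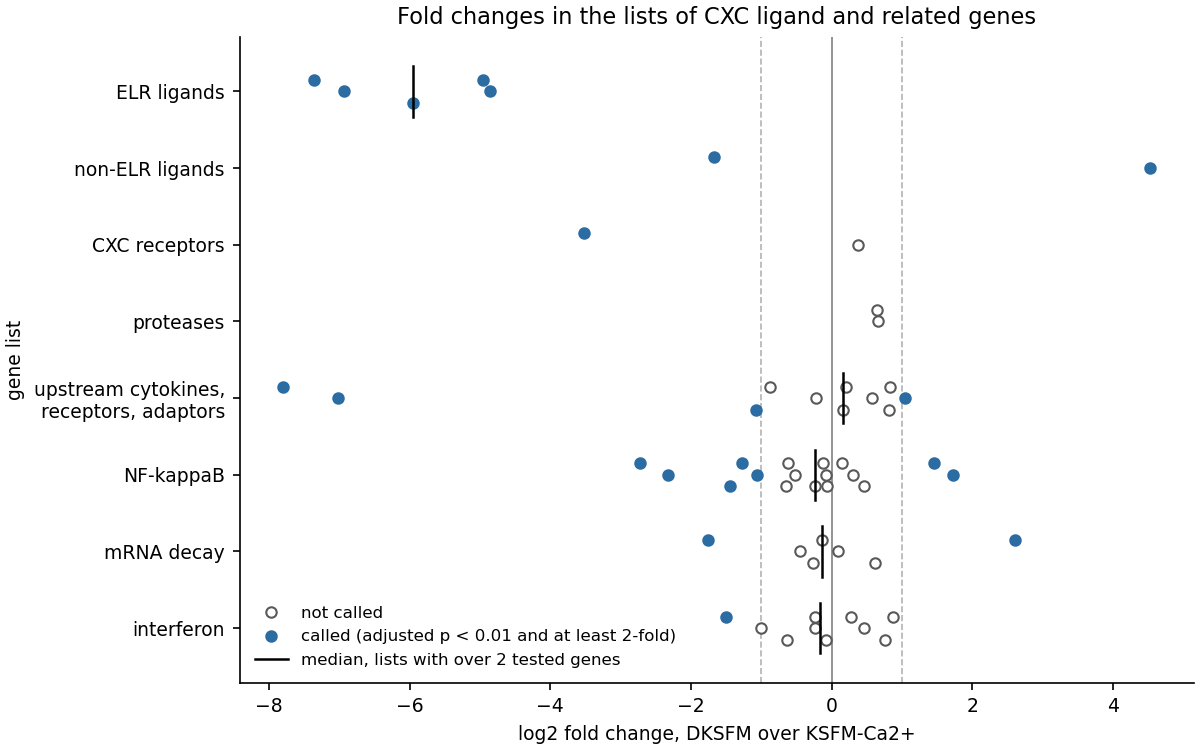
Log2 fold change (DKSFM over KSFM-Ca2+) of each tested gene in the lists of CXC ligands and related genes, filled where the gene was called, with the median of lists of more than 2 tested genes and dashed lines at 2-fold. The ELR ligands have a median of -5.95 (-4.87 with a pseudocount of 1), and the lists of upstream, NF-kappaB, mRNA decay and interferon genes have medians between -0.24 and 0.16. The point of *Tnf*, second from the left in its list, depends on the pseudocount because all DKSFM libraries were listed at 0. *Cxcr2*, *Il1a* and *Tnf* reached the filter through the high KSFM-Ca2+ libraries.

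Markers of keratinocytes and of other cell types that skin can hold were read in the same libraries. Of the 6 keratinocyte markers none was at 0, *Krt14* was the most abundant, and their summed coverage was 18920, 19320 and 18960 in the KSFM-Ca2+ libraries and 44800, 40890 and 45180 in the DKSFM libraries. *Krt5* and *Krt14* were called higher, at log2 fold changes of 1.25 and 1.31, *Trp63*, *Itga6* and *Col17a1* had 0.13, 0.14 and 0.37, and *Itgb4* went the other way at -0.74, so the sum follows the keratins. Of the 9 leukocyte markers, *Adgre1* and *Cd3e* were at 0 in all libraries, and *Ptprc*, *Itgam*, *Csf1r* and *Cd79a* were listed at 0.1 at most. Their sum was 269, 301.4 and 331.8 in the KSFM-Ca2+ libraries and 18.5, 21.9 and 23.2 in the DKSFM libraries. The sum was lower in the DKSFM cells, as were *S100a8*, the most abundant, and *S100a9*, which were called lower and which keratinocytes also express. *Cd68*, the remaining marker, had 11.5 ± 0.908 in the KSFM-Ca2+ cells and 17.6 ± 3.61 in the DKSFM cells and was not called (log2 fold change 0.6, adjusted p = 0.00515, limma), and it made up most of the sum in the DKSFM libraries. Of the 5 platelet or megakaryocyte markers, read because *Ppbp* is known from these cells, *Gp9* and *Treml1* were at 0 in all libraries and *Pf4* was at most 0.1. Their sum was 6.71, 6.43 and 6.61 in the KSFM-Ca2+ libraries and 53.4, 56.1 and 57.8 in the DKSFM libraries. It came for the most part from *Gp1bb*, which had 5.31 in the KSFM-Ca2+ cells and 52.2 in the DKSFM cells on average. *Gp1bb* and *Itga2b* were called higher. Of the 6 fibroblast markers, *Col1a1*, *Col1a2*, *Col3a1*, *Dcn* and *Lum* were at 0 in all libraries, and the sum, all from *Pdgfra*, was 1.14, 0.89 and 1.298 in the KSFM-Ca2+ and 2.34, 2.10 and 2.23 in the DKSFM libraries. Endothelial markers (4 genes, *Cdh5* at 0, *Kdr* and *Tek* listed at 0.4 at most, *Pecam1* the most abundant and called higher) summed, for the most part from *Pecam1*, to 2.82, 3.16 and 3.30 and to 8.28, 8.29 and 7.42. Melanocyte markers (5 genes, *Tyr* and *Dct* at 0, *Mitf* the most abundant and called higher) summed to 3.96, 3.96 and 4.60 and to 17.3, 18.6 and 18.3. The higher sum came from *Mitf* alone, since *Pmel* had 0.594 and 0.343 on average and *Mlana* was listed above 0 only in KSFM-Ca2+ 2. The part of other cells in the levels of the chemokine genes was not tested beyond these values.

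The word combined stood in the file names of all 3 DKSFM libraries and of 1 KSFM-Ca2+ library, so it is partly tied to the line. In these 4 libraries alone, a comparison chosen after the data were seen that assumes the lone KSFM-Ca2+ library to vary like the DKSFM libraries, 5 of 5 ELR members were called lower, *Cxcl16* lower and *Cxcl14* higher, beside 988 lower and 1641 higher of the 12137 genes tested.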

How the data were processed

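According to the notes of the submitters and the methods of the paper, directional poly(A) RNA was sequenced in single reads of 85 bases, STAR aligned the reads to mm10 (RefSeq genes, first-strand setting), Salmon quantified the genes, and DESeq2 compared the lines. The authors deposited a signal for each of 24982 genes, its read coverage per base as a mean with 1 decimal, without scaling to library size. How coverage was computed is not given in the sources used here. Coverage is not a count, so limma replaced a count model.

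Conditions came from the sample labels. An unweighted version of the trimmed mean of M values (trims of 30% of M and 5% of A values, factors from 0.991 to 1.01) scaled the libraries. Tested were the 12409 genes that reached 0.5 after scaling in 3 or more libraries (in 2 or more of the smaller sets), with limma on log2(normalized coverage + 0.1), an intensity trend, no covariate, and Benjamini-Hochberg adjustment. Fold changes on this scale understate changes of low genes. The work used limma 3.58.1 in R 4.3.3 and, for sequences and figures, Python 3.11.15 with pandas 2.3.3 and matplotlib 3.10.9. The procedure was tested on simulated data. No counts were available to the tests, so depth in reads was not used.

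The members and the gene lists were chosen with earlier results of these data known. Genes named in the text were all 10 members, the 3 genes of each list with the largest absolute log2 fold change among those that passed the filter, the genes of a list that failed it, the markers of cell types, the annotated genes within 500 kb of the outermost ELR members, and the 5 genes with the profile closest to *Cxcl1* and to *Cxcl16*. *Tnfrsf1a*, *Nfkbiz*, *Tnfaip3*, *Nfkbie*, *Cebpd* and the genes of the DNA-binding NF-kappaB subunits were named after their values were seen. No pair of libraries looked like a duplicate, the median absolute log2 difference being 0.0619 to 0.0855 within lines. Alternatives were relative log expression size factors, library totals, pseudocounts of 0.5 and 1, no filter, 0.5 in every library, no trend, a replicate block, each library left out, limma's treat and the combined libraries alone.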

Additional observations from a re-analysis of the deposited data

How the results depend on the processing

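All 7 tested members kept their direction and their call under the 16 alternatives, 112 comparisons in all. Log2 fold changes ran from -7.5 to -7.25 for *Cxcl1*, -6.19 to -4.87 for *Cxcl2*, -5.12 to -4.79 for *Cxcl3*, -7.08 to -6.54 for *Cxcl5*, -5.1 to -4.69 for *Ppbp*, 4.06 to 4.55 for *Cxcl14* and -1.73 to -1.63 for *Cxcl16*. Among all tested genes, limma's treat against a 2-fold change called 785 lower and 1062 higher in the DKSFM cells, against 1307 and 1636 without it. With a filter of 0.5 in every library, 955 genes were called lower and 1032 higher of 11112 tested. This filter leaves out genes that were under 0.5 in any library. The combined libraries alone, chosen after seeing the data, gave 988 lower and 1641 higher of 12137 tested.

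With a replicate block 1304 genes were called lower and 1641 higher, and no call of a member changed. Deviations of libraries with the same number had correlations of -0.01, 0.02 and -0.01, and those of the other pairs lay between -0.04 and 0.04. These values show no pairing by number, but they cannot exclude a shared preparation.

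Of the 8 differences between log2 ratios, 3 moved by more than the spread between libraries when the pseudocount was raised, a choice made after seeing the data. With 0.5 they were 1.95 for *Cxcl2* over *Cxcl1*, 0.57 for *Cxcl5* over *Cxcl1* and 5.96 for *Cxcl14* over *Cxcl16*, and with 1 they were 2.38, 0.71 and 5.73. The other 5 moved by less than the spread, with 2.43 and 2.46 for *Cxcl3* and 2.5 and 2.5 for *Ppbp* over *Cxcl1*. The rounding step of 0.1 limits genes near 0, such as *Cxcl10* and the DKSFM level of *Cxcl2*.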
